A study of Mus musculus with 4 samples.

Results

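The cytosolic ribosomal protein genes were taken from the matrix as the gene rows whose symbols begin with Rpl or Rps followed by a digit, together with Rplp0, Rplp1, Rplp2 and Rpsa. Pseudogenes and the relatives Rps6k, Rpl7l, Rps19bp, Rpl22l, Rpl39l and Rps27l were left out. This gave 81 genes of 32272, of which 49 encode proteins of the large ribosomal subunit and 32 encode proteins of the small subunit. They were spread over 19 chromosomes, with 14 on chromosome 7 and 4 on chromosome X.

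Each ribosome is built from ribosomal RNA and about equal numbers of the many ribosomal proteins, so the genes for these proteins are among the most strongly expressed in dividing cells. Their mRNAs begin with a run of pyrimidines, the terminal oligopyrimidine (TOP) motif, through which the kinase mTOR and the RNA-binding protein LARP1 set how actively they are translated. In blood, loss of 1 copy of genes such as Rps19, Rpl5 or Rpl11 causes Diamond-Blackfan anemia, a failure of red cell formation, and stem cells are known for a low and tightly held rate of protein synthesis.

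Hematopoietic stem and progenitor cells (HSPCs) were sorted as Lin-cKit+ cells from the bone marrow of male C57BL/6 wild type mice that were 8 weeks old. One sample came from unligated control mice (Ctrl) and the other from mice with silk ligatures on their molars for 14 days, a model of periodontitis (Lig), and marrow of 5 mice was pooled for each. Nuclei, not whole cells, were profiled by single-nucleus multiome sequencing, in which each nucleus yields RNA molecules, counted by unique molecular identifiers (UMIs), and cuts of a transposase in accessible chromatin (ATAC). Ctrl and Lig each had 1 RNA and 1 ATAC library, so no group had a replicate. In the matrix, barcodes end in 1 or 2, and the labels do not say which ending stands for Ctrl and which for Lig. The barcodes with each ending are named library 1 and library 2 here and are assigned to neither condition, so a difference between the libraries cannot be read as an effect of ligature. With 1 sample a group no test across samples was possible, so values carry 95% intervals that cover counting error only.

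Nuclei with at least 200 genes and 1000 to 50000 counts in ATAC peaks numbered 5905 in library 1 and 7714 in library 2, of 18961 barcodes. These held 10294527 and 12537328 UMIs, with medians of 1641 and 1517 UMIs and of 636 and 410 genes per nucleus. Of these UMIs, 43.0% and 53.2% fell on 3 genes at the ribosomal RNA locus (Gm42418, Gm26917 and AY036118). A level is therefore given in counts-per-million (CPM) of the UMIs of genes outside that locus. The barcode sequences shared by both libraries numbered 146, of which 72 were among the kept nuclei. Nuclei were grouped by joint RNA and ATAC clusters made without the ribosomal protein genes, and 14 of 17 clusters were named from marker genes, giving 13 named groups. The clusters left unnamed, numbered 0, 5 and 7, held 31.8% and 45.2% of the nuclei.

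Promoter sequences are shown for the genes with most UMIs of each subunit, to show where runs of C and T letters, of which the TOP motif is one, lie near their starts, and for both genes without an ATAC peak at the start. RefSeq promoters matched 61 of the 81 genes. Genes without an entry included Rpl17, Rpl21, Rpl23a, Rpl29, Rpl3, Rpl30, Rpl32, Rpl36, Rpl7, Rpl8, Rplp1, Rps14, Rps20, Rps27a and Rps29. Each sequence runs from 80 bases before the RefSeq start to 20 bases into the transcript, 5′ to 3′ on the strand of the gene, in build GRCm38.p6. Capitals mark the longest run of at least 8 C or T letters that lies between 40 bases before and 20 bases after the start.
Rpl35a (chr16:33056434-33056533, plus strand): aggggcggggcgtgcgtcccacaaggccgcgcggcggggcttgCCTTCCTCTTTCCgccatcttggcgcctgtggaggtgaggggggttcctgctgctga
Rpl13a (chr7:45128726-45128825, minus strand): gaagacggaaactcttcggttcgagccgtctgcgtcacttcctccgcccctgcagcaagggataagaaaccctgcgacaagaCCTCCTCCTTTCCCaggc
Rplp2 (chr7:141447571-141447670, plus strand): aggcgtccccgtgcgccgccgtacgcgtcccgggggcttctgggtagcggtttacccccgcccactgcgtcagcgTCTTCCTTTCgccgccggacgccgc
Rpsa (chr9:120127686-120127785, plus strand): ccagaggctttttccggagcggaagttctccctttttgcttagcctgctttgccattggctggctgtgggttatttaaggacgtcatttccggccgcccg
Rps12 (chr10:23787190-23787289, minus strand): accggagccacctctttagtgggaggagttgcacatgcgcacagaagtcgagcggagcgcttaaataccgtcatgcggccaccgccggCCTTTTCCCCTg
Rps9 (chr7:3703961-3704060, plus strand): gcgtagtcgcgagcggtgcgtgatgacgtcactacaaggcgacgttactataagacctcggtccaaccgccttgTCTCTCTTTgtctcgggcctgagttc
Rps27rt (chr9:114982720-114982819, minus strand): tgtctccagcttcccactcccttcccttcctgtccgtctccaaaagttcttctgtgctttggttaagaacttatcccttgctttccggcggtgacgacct
Rpl10l (chr12:66284382-66284481, minus strand): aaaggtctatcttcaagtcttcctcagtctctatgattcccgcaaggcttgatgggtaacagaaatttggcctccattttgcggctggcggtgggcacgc

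Positions were counted from the RefSeq start. The run spanned that start in Rps9 and Rplp2, the former from position -6 to 3 and the latter from -5 to 5. It lay past it in Rpl13a (position 3 to 16) and Rps12 (9 to 19), and ahead of it in Rpl35a (-37 to -25). The start is not 1 fixed position. In the GENCODE annotation, taken at the outer bound of each gene, all 5 genes begin ahead of the RefSeq start. Rpl35a, at 33056453, begins ahead of its run there. No run of this length was found at Rpsa, Rps27rt or Rpl10l in that window. The printed sequences of these genes hold runs of at least 8 C or T letters farther ahead of the RefSeq start. In the GENCODE annotation Rpsa, at 120127689, begins ahead of such a run. Runs of at least 8 C or T letters within 40 bases each side of the RefSeq start were present in 43 of 61 ribosomal protein promoters (70.5%) and in 28.5% of 20267 promoters of all genes, and the longest run had a median of 10 letters in the former and 6 in the latter.

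Short motifs were searched on both strands from 250 bases before to 50 bases after the start. CCGGAAG, which ETS factors bind, was found in 24 of 61 ribosomal protein promoters (39.3%) and in 11.1% of all promoters. GGGCGG, bound by SP and KLF factors, was found in 57.4% and 42.9%. TATAAA was in 5 promoters of the set (8.20%), beside 13.2% of all promoters, and the MYC E-box CACGTG was in 5 (8.20%) beside 7.76%. AAGATGGCG (YY1) and GCGCATGCG (NRF1) were in 3 promoters each (4.92%), beside 1.82% and 2.19% of all. These matches describe letters and show no binding.

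Ribosomal protein genes yielded 330701 UMIs in library 1 and 387522 in library 2. Their summed level was 56390 CPM (56197 to 56582) in library 1 and 65985 (65777 to 66193) in library 2, or 5.64% and 6.60% of UMIs outside the ribosomal RNA locus. Library 2 was thus 1.17-fold higher (1.16 to 1.18). The direction rested on the denominator: over UMIs of all genes, the share was 3.21% in library 1 and 3.09% in library 2. Among nuclei of like depth, defined as those with 500 to 900 UMIs of other genes outside the locus, the levels were 62817 and 67162 CPM and the fold was 1.07.

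Among the members, 78 had at least 1000 UMIs in each library. Their levels ran from 229 to 2323 CPM in library 1 and from 246 to 2958 in library 2, and each was detected in 19.5% to 82.9% of library 1 nuclei and in 16.7% to 86.0% of library 2 nuclei. Rplp1, a protein of the stalk of the large subunit that recruits translation factors, and Rpsa, a protein of the small subunit, held 8.27% of all ribosomal protein UMIs. Rplp1 stood at 2104 CPM (2067 to 2141) in library 1 and 2958 (2914 to 3002) in library 2, and Rpsa at 2323 (2284 to 2363) and 2733 (2690 to 2775). Rpsa was therefore above Rplp1 in library 1 and below it in library 2.

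The 10 genes with most UMIs held 27.5% of the total. Besides Rplp1 and Rpsa they included the small subunit genes Rps12 (1387 and 1976 CPM in libraries 1 and 2) and Rps9 (1472 and 1839). The large subunit genes Rpl35a (1302 and 1585), Rpl13a (1265 and 1545) and Rplp2 (1242 and 1512) were also among them, as were Rps14 (1147 and 1474) and Rps24 (1152 and 1458). Per kilobase of annotated exon, the median member stood at 287 and 304 CPM, and Rplp1 was the highest at 4216 and 5928. This scale divides by the union of exons of all transcripts, so genes with long minor isoforms read low. UMIs count molecules and need not grow with exon length, so short genes can read high.

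Members at the bottom of the range are relatives known from other tissues or copies of a second gene. Rpl10l, an autosomal copy of Rpl10 known from testis, had 0 UMIs in both libraries, which allows up to 3 UMIs in each. Rpl3l, the relative of Rpl3 known from striated muscle, had 18 and 7 UMIs. Rps27rt, a retrogene copy of Rps27, had 125 and 157 UMIs, or 21.3 and 26.7 CPM, and its UMIs could include RNA of Rps27. Rps27 itself stood at 520 and 493 CPM. The sources used here do not state how reads that fit several copies were counted.

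**Figure D1:**
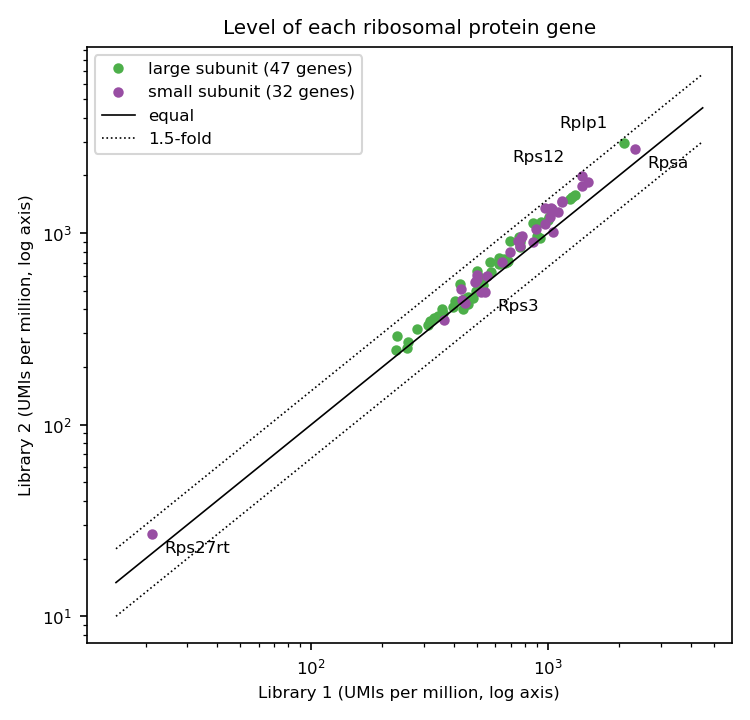
Level of the 79 ribosomal protein genes with at least 100 UMIs in library 1 (x axis) and library 2 (y axis), in CPM outside the ribosomal RNA locus on log axes, with 1 point per gene and colors for the subunits. All points lie between the dotted lines at 1.5-fold, most above the line of equal levels, with Rps12 and Rplp1 nearest the upper line and Rps27rt far below the other genes.

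No member with at least 100 UMIs reached a 1.5-fold difference between the libraries. Of 79 members with at least 100 UMIs, 0 were at least 1.5-fold higher in library 2 and 0 were at least 1.5-fold lower, whereas of 8822 genes tested the same way 1.8% were higher and 29.6% were lower. The median log2 ratio of library 2 over library 1 was 0.17 for the members and -0.37 for all genes. Library 2 was above library 1 at all in 70 of 79 members (88.6%) and in 19.2% of all genes. Over UMIs of all genes, 23 members were above and 56 below, with a median log2 ratio of -0.11, and 7.02% of all genes were above, with a median of -0.62. None of the 79 members passed 1.5-fold on that scale either, where 0.669% of genes were higher and 57.2% lower. Outside the locus and with counting error alone, 59 members had an interval above equal levels, 5 had one below and 15 spanned it. The interval rule was not applied to all genes, so these counts have no share of genes beside them.

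The largest ratios were those of Rps12, Rplp1 and Rps26, which encodes a protein at the mRNA exit channel of the small subunit. Rps12 was 1.42-fold higher in library 2 (1.38 to 1.47), Rplp1 1.41-fold (1.37 to 1.44) and Rps26 1.38-fold (1.34 to 1.43), from 972 to 1344 CPM. At the other end, Rps3, a small subunit protein at the mRNA entry site, stood at 0.902 of its library 1 level (0.858 to 0.949), with 542 and 489 CPM. Rpl4, which lines the exit tunnel of the large subunit, stood at 0.914 (0.864 to 0.967) and Rpl5, which forms a particle with ribosomal RNA that restrains MDM2, at 0.924 (0.875 to 0.976).

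The subunits kept nearly the same balance. The share of ribosomal protein UMIs that came from small subunit genes was 47.9% (47.7% to 48.0%) for library 1 and 48.6% (48.5% to 48.8%) for library 2. Over the 16 groups of nuclei this share ran from 47.0% in B-like to 49.9% in cMoP-like nuclei of library 1 and from 47.3% in B-like to 50.9% in pDCP-like nuclei of library 2. The log2 shares of the 79 members correlated between libraries with a Pearson r of 0.990, across genes that share both libraries and are not independent.

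Ribosomal protein UMIs were counted with every kept barcode, beside a mean of 18.9 and 20.7 in barcodes with under 200 genes. The fewest UMIs in any kept nucleus were 7 in library 1 and 12 in library 2, the medians were 52 and 48, and the central 90% of nuclei lay between 25 and 97 and between 26 and 83. The median nucleus had UMIs of 35 and 33 different members. One GMP-like nucleus of library 1 stood apart with 2005 ribosomal protein UMIs, 37.4% of its UMIs outside the locus, while the next highest had 339 and 315.

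Ribosomal protein UMIs rose less steeply than other UMIs from shallow to deep nuclei. When the nuclei of each library were ordered by other UMIs and split into quintiles, the mean of other UMIs rose 3.997-fold in library 1 and 3.13-fold in library 2 from the lowest to the highest quintile. Mean ribosomal protein UMIs rose from 36.6 to 79.98 per nucleus in library 1 (2.19-fold) and from 37.2 to 66.7 in library 2 (1.79-fold). Their share accordingly fell from 8.40% to 4.78% and from 9.18% to 5.46%. Because the split used other UMIs, which are also in the denominator of the share, part of this fall is fixed by construction.

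**Figure D2:**
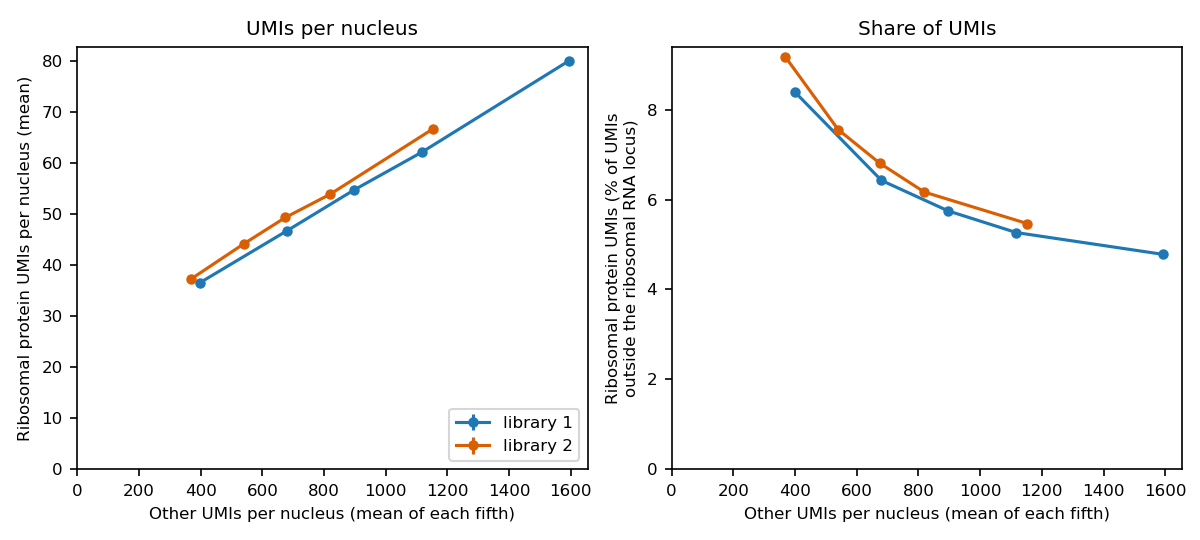
Mean ribosomal protein UMIs per nucleus (left, with 95% counting intervals) and their share of UMIs outside the ribosomal RNA locus in percent (right), against mean other UMIs per nucleus in each quintile of nuclei, with blue for library 1 and orange for library 2. UMIs per nucleus rose from 36.6 to 79.98 in library 1 and from 37.2 to 66.7 in library 2, while the share fell in both.

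Across the 13 named groups, the level differed 1.38-fold in library 1 (1.33 to 1.43) and 1.36-fold in library 2 (1.32 to 1.40) between the lowest and the highest. In library 1 the neutrophil progenitor (NeuP-like) nuclei were highest at 75682 CPM (73950 to 77444), followed with an overlapping interval by pro-NK/T-like nuclei at 72794 (71041 to 74580) and then by erythrocyte progenitors (EryP-like) at 68121 (67298 to 68950). B-like nuclei came next at 64474 (63005 to 65969). Conventional dendritic progenitors (cDCP-like) were lowest at 54800 (53158 to 56480), and their interval overlapped those of MPP4/CLP-like nuclei, the lymphoid-primed progenitors, at 55315 and pro-B-like nuclei at 55585. Granulocyte-monocyte progenitors (GMP-like) stood at 56340, also with an overlapping interval, and stem cells (HSC-like) at 58143. The remaining groups, BaP-like (basophil), MkP-like (megakaryocyte), pDCP-like (plasmacytoid dendritic) and cMoP-like (monocyte) nuclei, lay between 59603 and 61765 with overlapping intervals.

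In library 2 the order began with pro-NK/T-like nuclei at 90729 (88180 to 93332), B-like nuclei at 87007 (83946 to 90152) and NeuP-like nuclei at 79243 (77909 to 80595), with overlapping intervals for the former pair. EryP-like nuclei followed at 74421 (73361 to 75492). GMP-like nuclei were lowest at 66850 (66308 to 67397), and the intervals of HSC-like nuclei at 67915 (67239 to 68597) and MkP-like nuclei at 68243 overlapped theirs. Spearman's rho between the libraries was 0.621 over 13 groups. Within every named group library 2 was higher than library 1, from 1.05-fold in NeuP-like to 1.35-fold in B-like nuclei. Unnamed cluster 7 went the other way at 0.916-fold (0.886 to 0.946). The direction in the named groups rests on leaving out the ribosomal RNA locus: over UMIs of all genes library 2 was higher in 5 of 13 named groups and lower in 8, from 0.887-fold in NeuP-like to 1.09-fold in cDCP-like nuclei. The groups at the ends also changed with the processing. Pro-NK/T-like nuclei were highest in library 1 over UMIs of all genes and with at least 500 genes. BaP-like nuclei were lowest in library 2 over UMIs of all genes. On that scale NeuP-like nuclei of library 1 stood at 35018 CPM, below pro-NK/T-like (42714), EryP-like (39272) and B-like nuclei (37653). In library 2 NeuP-like nuclei stood at 31059, and only cMoP-like (31020) and BaP-like nuclei (30270) were lower among the named groups. Without the nucleus with 2005 UMIs, GMP-like nuclei of library 1 stood at 53788 CPM, below cDCP-like nuclei but with overlapping intervals. A list of 12 abundant cytoplasmic mRNAs had wider spans over the named groups, 1.90-fold and 1.64-fold. It was highest in NeuP-like and lowest in GMP-like nuclei in both libraries. The other lists outside the set had groups other than NeuP-like highest, such as EryP-like for ribosome biogenesis genes (2.31-fold and 1.59-fold).

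**Figure D3:**
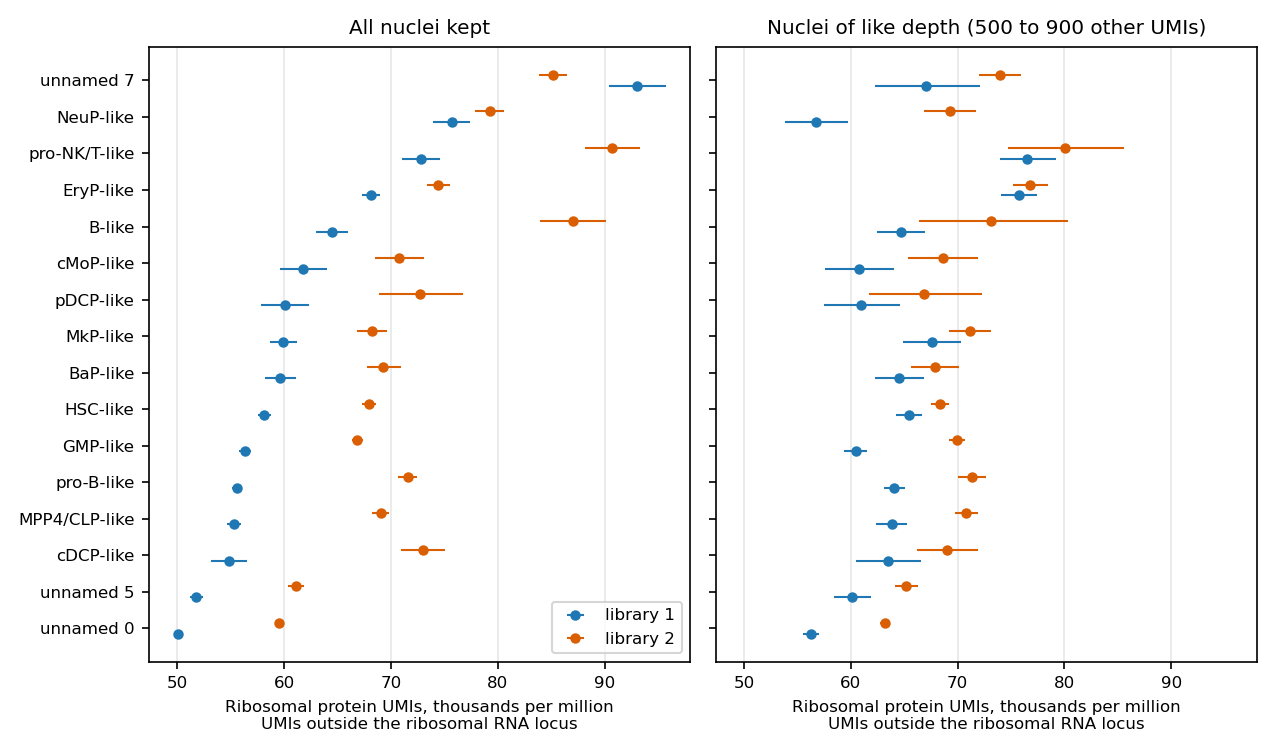
Summed ribosomal protein level in each group of nuclei, in CPM outside the ribosomal RNA locus (axis in units of 1000), for all kept nuclei (left) and for nuclei with 500 to 900 other UMIs (right), with 95% counting intervals, blue for library 1 and orange for library 2. NeuP-like nuclei of library 1 stood at 75682 CPM on the left and 56748 on the right, whereas EryP-like and pro-NK/T-like nuclei stayed among the highest in both panels.

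Depth moved with this order. Over the 13 groups, the rho between level and median UMIs per nucleus was -0.725 in library 1 and -0.896 in library 2, as a description of groups that share a library. The median counts UMIs of all genes. UMIs outside the locus are part of it and the denominator of the level, so part of this rho may be fixed by construction. NeuP-like nuclei had 498 and 524 other UMIs each and B-like nuclei 536 and 381, while GMP-like nuclei had 986 and 800. Counted per nucleus, the order turned: EryP-like nuclei of library 1 held most ribosomal protein UMIs at 67.9 per nucleus (67.1 to 68.7) and B-like nuclei fewest at 36.9 (36.1 to 37.8). In library 2, GMP-like nuclei held most at 57.3 (56.9 to 57.8) and B-like nuclei fewest at 36.3 (35.0 to 37.6).

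The levels were also taken in nuclei of like depth. This window selects on other UMIs, so it kept the deeper nuclei of shallow groups and the shallower nuclei of deep ones, which moves their levels by construction. EryP-like nuclei stood at 75744 CPM (74097 to 77419, 137 nuclei) in library 1 and 76803 (75178 to 78454, 155 nuclei) in library 2. Pro-NK/T-like nuclei stood at 76535 (73953 to 79184, 62 nuclei) and 80019 (74732 to 85581, 15 nuclei). HSC-like nuclei were at 65459 (64230 to 66705) and 68322 (67463 to 69188), below both with intervals apart in each library. NeuP-like nuclei, of which 36 of 178 and 66 of 298 were in the window, were the lowest named group of library 1 at 56748 (53874 to 59735), with an interval that overlapped those of GMP-like, cMoP-like and pDCP-like nuclei, and stood at 69244 (66835 to 71717) in library 2. The span over named groups was 1.35-fold in library 1 and 1.197-fold in library 2, and outside the locus library 2 was above library 1 in 13 of 13 named groups, in 10 beyond counting error. Groups rested on as few as 9 nuclei here, and mean other UMIs still differed 1.15-fold and 1.16-fold between groups.

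Pro-B-like nuclei consisted of 2 clusters with unlike levels. The cluster led by Cplx2 and Gfra2 stood at 52996 CPM in library 1 and 68104 in library 2, with 1051 and 701 other UMIs per nucleus. The cluster led by Cacna1e and Ankrd33b stood at 71618 and 89199, with 529 and 382 other UMIs per nucleus. Unnamed cluster 7, with 374 and 450 other UMIs per nucleus, had 93040 and 85199, and at like depth it stood at 67024 (16 nuclei) and 73959. Unnamed cluster 0, led by Nrg1 and Tnf, was the lowest of all groups at 50011 and 59492. The part of depth in these differences was not tested beyond the nuclei of like depth.

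Against the other nuclei of its library, a member counted as raised in a group when it was at least 1.5-fold higher in both libraries with at least 20 UMIs expected in each. In NeuP-like nuclei 2 of 78 members met this, Rpl34 and Rpl39, where 4.31% of all genes tested did. Rpl39, which lines the exit tunnel of the large subunit, was 1.81-fold (1.40 to 2.31) and 1.51-fold (1.23 to 1.84) higher there, at 710 and 614 CPM. Rpl34 was 1.62-fold (1.26 to 2.05) and 1.53-fold (1.27 to 1.84) higher, at 741 and 702.

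In pro-NK/T-like nuclei 2 of 68 members met it, Rpl7 and Rps21, beside 4.65% of genes. Rpl7 was 1.63-fold higher in each library, at 1001 and 1115 CPM, and Rps21 was 1.55-fold and 1.67-fold higher, at 1068 and 1323. In unnamed cluster 7, 3 of 66 did, Rpl12, Rplp0 and Rpl23, beside 2.0% of genes, and the folds ran from 1.51 (Rpl23 in library 2) to 2.002 (Rpl23 in library 1). In the other 13 groups 0 members did. The share of all genes raised was 0.0% in pDCP-like, 1.45% in unnamed 5, 1.52% in unnamed 0, 2.11% in GMP-like, 3.36% in MkP-like, 3.51% in B-like, 3.68% in cMoP-like, 3.73% in HSC-like, 4.54% in EryP-like, 4.76% in BaP-like, 5.54% in MPP4/CLP-like, 5.84% in cDCP-like and 10.1% in pro-B-like nuclei.

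Of the members with at least 20 UMIs expected in each library, 0 were at least 1.5-fold lower in both in any of the 16 groups. These numbered 20 in pDCP-like, 48 in B-like, 66 in cMoP-like and unnamed 7, 68 in pro-NK/T-like, 74 in cDCP-like, 79 in unnamed 0 and 78 in each other group, so Rps27rt and the genes with few UMIs were mostly not tested. The share of all genes lower was 1.0% in unnamed 7, 2.91% in unnamed 5, 3.06% in HSC-like, 3.58% in MPP4/CLP-like, 3.7% in BaP-like, 4.65% in pro-NK/T-like, 5.5% in cDCP-like and 7.44% in MkP-like nuclei. It was 8.65% in EryP-like, 8.7% in pDCP-like and pro-B-like, 8.73% in GMP-like, 10.5% in B-like, 10.7% in unnamed 0, 11.1% in cMoP-like and 26.8% in NeuP-like nuclei. Each member was also taken as a share of ribosomal protein UMIs, a measure defined for members only. On it, 0 of the members tested passed 1.5-fold in both libraries in any group.

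Over the 78 members with most UMIs, the fold between the highest and the lowest named group, libraries pooled, had a median of 1.53 and ran from 1.28 to 2.28. The highest group was pro-NK/T-like for 33 members, NeuP-like for 33 and another for 12. The libraries differed in this: NeuP-like nuclei were highest for 37 members in library 1 and 6 in library 2, pro-NK/T-like nuclei for 21 and 37, and B-like nuclei for 4 and 20. Only 15 of the 78 members had the same highest group in both. Highest groups were not counted for all genes, so it is not known whether these counts are particular to the members. Within the libraries the median was wider, at 1.81 and 1.69. The widest pooled span among these members was that of Rps25 at 2.28-fold (1.42 to 3.88), from 296 CPM in pDCP-like to 675 in NeuP-like nuclei. In library 1 the same groups were its ends, and in library 2 they were cDCP-like and B-like nuclei. Rpl22, whose loss is known to impair lymphocyte development, spanned 2.03-fold (1.22 to 3.51), from 205 in cMoP-like to 418 in B-like nuclei. B-like nuclei were its highest group in each library, at 423 and 399.5 CPM. The lowest was cDCP-like at 156 in library 1 and cMoP-like at 117 in library 2, spans of 2.71-fold and 3.42-fold. These spans within a library carry no interval, and B-like and cMoP-like nuclei of library 2 numbered only 84 and 83.

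With libraries pooled, Rps19 spanned 1.30-fold (1.15 to 1.47) and Rpl24 1.31-fold (0.919 to 1.82), below the median, but within library 2 both were at or above it. Rps19, the gene most often mutated in Diamond-Blackfan anemia, ran from 994 CPM in HSC-like to 1289 in NeuP-like nuclei. Within library 1 it spanned 1.45-fold between the same groups, and within library 2 it spanned 1.72-fold, from 1028 in cDCP-like to 1769 in B-like nuclei. Rpl24 spanned 1.34-fold and 1.69-fold within the libraries. Since each span takes the extremes of 13 groups, counting error alone widens it most for members with few UMIs.

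Among the 16 members known from Diamond-Blackfan anemia, 0 differed 1.5-fold between libraries, beside 1.8% of all genes higher and 29.6% lower. The median log2 ratio of the 16 was 0.17. Both values were the same for all members with at least 100 UMIs. The levels of the 16 summed to 10457 and 11986 CPM. Rpl35a and Rps24 had most UMIs, Rps26 had the largest ratio at 1.38 and Rpl5 the smallest at 0.924.

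Other lists of ribosome production and translation had median ratios between libraries that lay below the 0.17 of the ribosomal proteins. Of 60 ribosome biogenesis genes tested, 2 were at least 1.5-fold higher in library 2 and 1 was lower, beside 1.8% and 29.6% of all genes, with a median log2 ratio of 0.00 beside -0.37 for all genes. Ncl (nucleolin) stood at 1270 and 1451 CPM and Npm1 (nucleophosmin), a nucleolar chaperone, at 701 and 1044, while Nhp2, a protein of small nucleolar RNA particles, had the largest ratio at 1.59 and Nmd3, the export adapter of the large subunit, the smallest at 0.616. Of 39 translation factors, 0 were higher and 1 lower, beside the same shares of all genes, with a median of 0.04. Pabpc1, the cytoplasmic poly(A)-binding protein, stood at 1757 and 2119, and Eef1a1, an elongation factor whose mRNA also has a TOP motif, at 1354 and 1379. Eif3g had the largest ratio at 1.42 and Eif4g3 the smallest at 0.618.

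Of 12 hosts of small nucleolar RNAs, 0 were higher and 1 lower, beside 1.8% and 29.6% of all genes, with a median of -0.12. Rack1, a scaffold protein of the small subunit, had the largest ratio at 1.21 (671 and 815 CPM), Gas5 stood at 336 and 271, and Snhg5 had the smallest ratio at 0.591. Of 22 regulators in the mTOR, MYC and p53 pathways, 0 were higher and 5 lower, with a median of -0.41, close to the -0.37 of all genes, of which 29.6% were lower. Larp1, which binds TOP mRNAs, stood at 442 and 324. Myc, a driver of ribosome production, had the largest at 1.38, with 43.7 and 60.3 CPM.

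Chromatin at the promoters was measured as counts in ATAC peaks that overlap 1 kb each side of the annotated starts. Of 81 members, 79 had such a peak (97.53%), and 64.3% of all genes did. The exceptions were Rpl10l (chr12:66283379-66284401) and Rps27rt (chr9:114982366-114982739), the copy genes with few or no UMIs. For 23 members the peak also lay by the start of another gene, so that its counts cannot be given to 1 of them. The median member had 5032 counts in library 1 and 5241 in library 2, beside 2714 and 2981 for all genes with a promoter peak.

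Summed over 93 peaks, promoter ATAC was 3595 CPM of all peak counts (3580 to 3610) in library 1 and 3418 (3404 to 3433) in library 2. Library 2 was the lower one here, as it was for RNA over UMIs of all genes but not for RNA over UMIs outside the ribosomal RNA locus. Single promoters differed from 0.859-fold to 1.10-fold between libraries with a median of 0.951, and 0 members were 1.5-fold higher or lower, beside 0.966% and 0.83% of 20714 genes. The lowest fold was that of Rpl37, from 64.1 to 55.1 CPM.

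Most counts fell by Rpl41, Rpl18 and Rps14. Rpl41, which encodes the smallest ribosomal protein, had 116 CPM (113 to 119) in library 1 and 105 (102 to 108) in library 2, in 2 peaks, with the start of Zc3h10 nearby. Rpl18 had 101 and 98.1 in 3 peaks, with Sphk2 nearby. Rps14 had 95.5 and 96.0 in 7 peaks, since its annotated starts spread over 29.1 kb, with the start of Ndst1 nearby. The fewest counts at a promoter peak were those of Rpl3l at 4.0 and 4.41, Rps4x at 15.4 and 15.1, and Rpl6 at 19.98 and 20.5.

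Promoter counts and RNA per kilobase of exon did not rank the members alike. Spearman's rho between promoter counts and RNA per kilobase of exon was -0.050 in library 1 and -0.039 in library 2 over 79 members, as a description across genes of 1 library. Rplp1 had 44.8 and 41.0 promoter CPM, near the member median, while its RNA per kilobase was the highest of all. The rho with the level not divided by exon length was not computed.

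**Figure D4:**
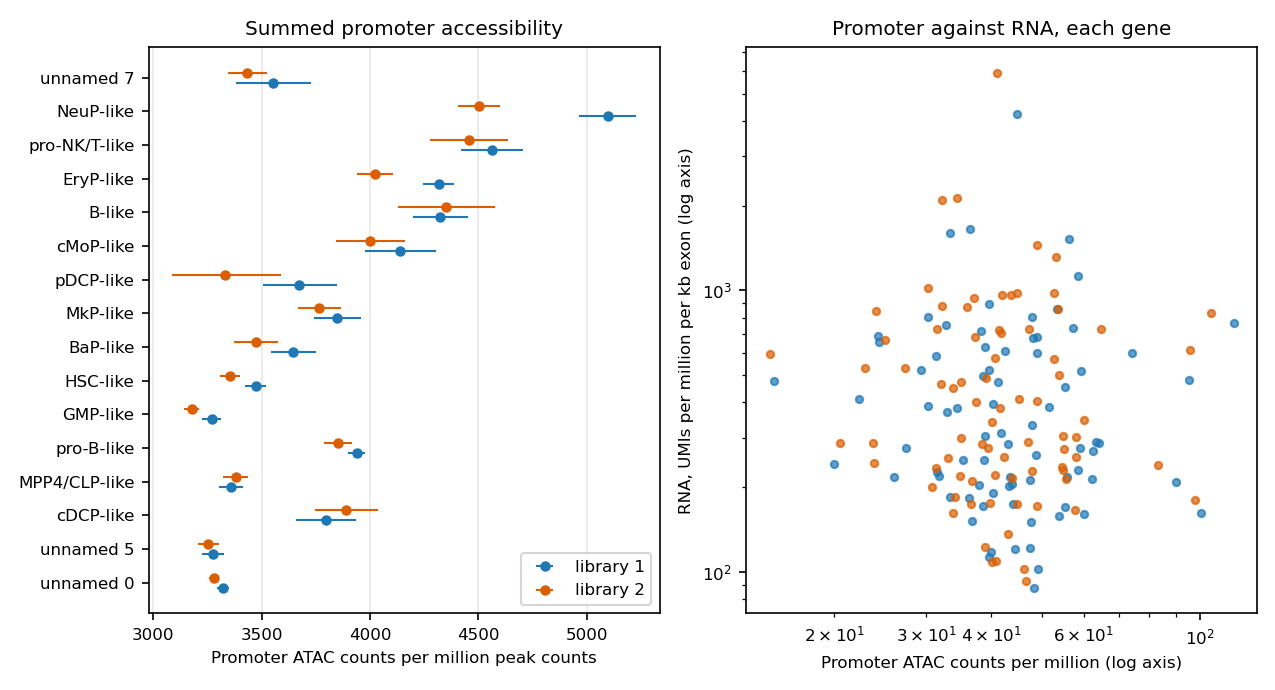
Summed promoter ATAC of the ribosomal protein genes in CPM of peak counts in each group of nuclei with 95% counting intervals (left), and promoter CPM against RNA level per kilobase of exon for the 78 members with a promoter peak and at least 100 UMIs on log axes (right), with blue for library 1 and orange for library 2. NeuP-like nuclei had the highest promoter counts at 5097 and 4502 and GMP-like nuclei the lowest of the named groups at 3269 and 3177, and the points on the right show no slope.

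Across the named groups, promoter levels as a share of peak counts were highest in NeuP-like nuclei at 5097 CPM (4966 to 5230) in library 1 and 4502 (4406 to 4600) in library 2. They were lowest in GMP-like nuclei at 3269 (3227 to 3312) and 3177 (3142 to 3212), a span of 1.56-fold and 1.42-fold, with MPP4/CLP-like nuclei of library 1 at 3359 and pDCP-like nuclei of library 2 at 3331 overlapping them. At the upper end, the intervals of pro-NK/T-like and B-like nuclei of library 2 overlapped that of NeuP-like nuclei. Depth moved with this order too, and counted per nucleus it turned. NeuP-like nuclei had 12691 and 12299 ATAC counts each, of which 64.7 and 55.4 were at these promoters, and GMP-like nuclei had 21232 and 19565, of which 69.4 and 62.2 were. Per nucleus the highest named group was cMoP-like in library 1 at 76.0 and GMP-like in library 2, and the lowest was B-like at 45.3 and 34.7. The part of depth in the promoter levels was not tested. Pro-NK/T-like nuclei had 4564 and 4456 CPM of peak counts, B-like nuclei 4325 and 4350, and EryP-like nuclei 4317 and 4022. The rho with the RNA level over the 13 groups was 0.786 and 0.830, over points that share a library. Both levels are shares, of UMIs outside the locus for RNA and of peak counts for ATAC, and depth moved with both orders.

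Barcodes with under 200 genes, which were not kept, also held ribosomal protein RNA. They numbered 2080 in library 1 and 1977 in library 2, with 131 and 183 other UMIs each. These barcodes were picked by a low gene count and hold few other UMIs, so part of the folds below may be fixed by construction. In the lowest quintile of kept nuclei by other UMIs, the share of ribosomal protein UMIs was 8.40% and 9.18%. Ribosomal protein genes stood at 126174 CPM (124929 to 127428) and 101740 CPM (100757 to 102729) there, or 12.6% and 10.2% of UMIs outside the ribosomal RNA locus, 2.24 and 1.54 times the level in kept nuclei. The Diamond-Blackfan members stood at 2.41 and 1.65 times, mitochondrial ribosomal proteins at 1.64 and 1.43 times and hosts of small nucleolar RNAs at 1.5 and 1.37 times their level in kept nuclei. Abundant cytoplasmic mRNAs stood at 1.63 and 1.45 times, translation factors at 1.497 and 1.34 times and ribosome biogenesis genes at 1.03 and 1.09 times. The mTOR, MYC and p53 regulators stood at 0.684 and 0.807 times, and nuclear RNAs at 0.509 and 0.536 times their level in kept nuclei. The nuclear RNAs were 3 genes, of which Malat1 gave 8665 of 9475 CPM and 7528 of 8084 CPM in kept nuclei.

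The mix of members in these barcodes was close to that of kept nuclei. The log2 shares of 78 members correlated with a Pearson r of 0.934 in library 1 and 0.975 in library 2. In library 1, 1 member was at least 1.5-fold higher as a share of ribosomal protein UMIs, Rpl39 at 1.52-fold, and 4 were lower, with Rpsa lowest at 0.582. In library 2 none passed 1.5-fold either way, Rpsa was again lowest at 0.702 and Rpl35 highest at 1.48. This measure is defined for members only, so no share of all genes stands beside these counts. Free RNA was not removed from the counts, every cell type expresses these genes, and the part of free RNA in the levels of kept nuclei was not tested.

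**Figure D5:**
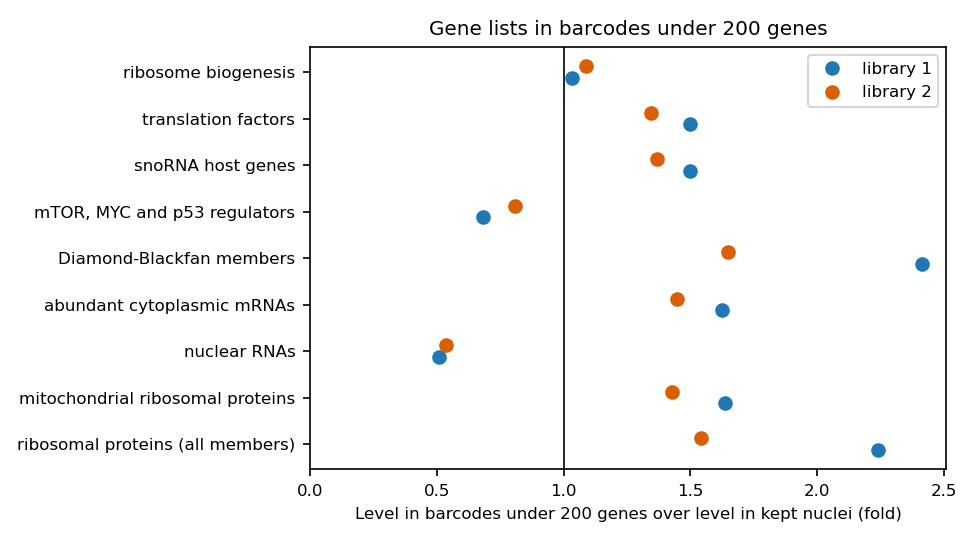
Level of each gene list in barcodes with under 200 genes divided by its level in kept nuclei, as a fold, with blue for library 1, orange for library 2 and a line at equal levels. Ribosomal proteins stood at 2.24 and 1.54, above abundant cytoplasmic mRNAs at 1.63 and 1.45. Nuclear RNAs, mostly Malat1, stood at 0.509 and 0.536. The barcodes were picked by a low gene count, so part of these folds may be fixed by construction.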

How the data were processed

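Values were the counts as deposited by the authors in 1 matrix, raw UMI counts for genes and raw ATAC counts for peaks, made with Cell Ranger ARC 2.0.0 and build GRCm38 (mm10). The submitters' processing notes also name Seurat 4.0.3 and Signac 1.3.0. UMIs were summed per group of nuclei and library (Python 3.11.15, scipy 1.17.1). Clusters came from RNA and ATAC embeddings joined by weighted nearest neighbours after anchor correction, with 30 components, ATAC components 2 to 30 and Louvain resolution 0.8 (Seurat 5.3.0, R 4.3.3). Ribosomal protein genes were left out, 3 of which would have been among the 2000 variable genes. A name needed at least 3 raised markers (log2 ratio of at least 1, at least 10 counts) and 1 among the 10 leading genes. No doublet caller was run. Log2 ratios used a pseudocount of 1 CPM.

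Intervals are exact Poisson or binomial 95% intervals, for ATAC on pairs of counts since 82.5% of nonzero peak entries were even. UMIs are molecules, but intervals cover counting error only. Calls used plain folds. Those between libraries were checked on simulated Poisson counts without spread between nuclei, and the other calls were not checked in this way. Members and lists were chosen with earlier results of these data known. Named genes were the 10 with most UMIs, the 3 at each end of the library ratio, group span and promoter counts, those under 20 UMIs or without a promoter peak, and in each list the 2 with most UMIs and both ends of the ratio. Some genes that this rule names are not reported here. Rps27, the pro-B-like clusters and the nucleus with 2005 UMIs were singled out after their values were seen. Settings tried are in the closing section.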

Additional observations from a re-analysis of the deposited data

Results flagged for a closer look

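Ribosomal protein RNA was found in barcodes that no comparison of nuclei used. Barcodes with under 200 genes held 18.9 ribosomal protein UMIs each in library 1 and 20.7 in library 2, and kept nuclei held 56.0 and 50.2. The share of UMIs at the ribosomal RNA locus was also higher in these barcodes, at 60.8% and 66.0% beside 43.0% and 53.2% in kept nuclei, and their promoter ATAC level of the members was 4387 and 4064 CPM beside 3595 and 3418. What these barcodes contain was not tested.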

How the results depend on the processing

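Of 81 recomputed values, 43 stayed close to the value reported, 36 moved beyond it and 2 changed sign. With UMIs of all genes as denominator, the log2 ratio of library 2 over library 1 became -0.056 for the sum and -0.11 for the median member, and the levels became 32124 and 30909 CPM, because the ribosomal RNA locus holds a larger share in library 2. Members higher in library 2 then numbered 23 and named groups 5, counts chosen after seeing the data. The summed levels were 53424 and 58577 with at least 500 genes, 55252 and 65648 with limits on halved peak counts, 57393 and 67509 without the 5% of nuclei with most UMIs, and 47716 and 54716 without the 5 members with most UMIs. Chosen after seeing the data, they were 62817 and 67162 in nuclei of like depth, and 56099 in library 1 without the nucleus with 2005 UMIs. The log2 ratio of the sum was 0.13, 0.25, 0.23, 0.20, 0.10 and 0.23 under these settings in the same order, and the median member ratio moved to 0.11 with at least 500 genes and to 0.16 without the 5 members. The small subunit share moved to 48.2% in library 2 with at least 500 genes, and to 42.8% and 43.5% without the 5 members. Members at least 1.5-fold lower in library 2 numbered 1 with a minimum of 20 UMIs, which admitted Rpl3l. The span over named groups was 1.45 and 1.48 at clustering resolution 0.4, 1.84 and 1.58 in UMIs per nucleus, and 1.197 in library 2 at like depth. Under each setting tried for it, the highest or the lowest group changed in at least 1 library: pro-NK/T-like nuclei became highest in library 1 over UMIs of all genes, with at least 500 genes and at resolution 1.2, B-like nuclei highest in library 2 with at least 500 genes or without correction between libraries, and BaP-like, pDCP-like or MkP-like nuclei lowest in library 2 under others. Promoter ATAC was 3537 and 3399 with at least 500 genes and 3499 and 3320 with a window of 500 bp. Intervals are narrow because UMIs are many, and with 1 sample a group the spread between mice was not measured. With the other settings the ratio of the sum and that of the median member stayed above 0. The cause of the other shifts was not tested. No paired analysis was possible because each group has 1 sample and barcode suffixes are tied to no sample.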

Other observations

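Nuclear-encoded mitochondrial ribosomal proteins, which build the separate ribosome of the mitochondrion, had a far lower summed level. Their 78 genes summed to 1914 CPM in library 1 and 2010 in library 2. Of 76 tested, 3 were at least 1.5-fold higher and 4 lower in library 2, beside 1.8% and 29.6% of all genes, with a median log2 ratio of 0.08 beside -0.37. Mrps28 (99.8 and 72.4 CPM) and Mrpl33 (81.5 and 81.1) had most UMIs, Mrpl47 had the largest ratio at 1.84 and Mrps27 the smallest at 0.584.

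Relatives left out of the set included Rpl22l1, a paralog of Rpl22 that stood at 150 and 183 CPM, and Rps27l, a paralog of Rps27 known as a p53 target, at 73.5 and 96.9. Rps6ka3, a kinase and not itself a ribosomal protein, stood at 155 and 89.1. It was the 1 of 7 relatives tested that was at least 1.5-fold lower in library 2, beside 29.6% of all genes. The median log2 ratio of the 7 relatives was 0.19, above the 0.17 of the members. Among abundant cytoplasmic mRNAs, 0 of 12 passed 1.5-fold, beside 1.8% of all genes higher and 29.6% lower, with a median log2 ratio of 0.10. Ptma stood at 3194 and 3853, Actb at 1498 and 1587, Pfn1 had the largest ratio at 1.32 and Hmgb1 the smallest at 0.774. Of 3 nuclear RNAs, 1 was lower, Kcnq1ot1 at 0.375, a share near the 29.6% of all genes, while Malat1 stood at 8665 and 7528 and Neat1 at 491 and 436.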
